A study of Homo sapiens with 15 samples.

Results

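The 10 mature arms of the miR-17-92 cluster that both count tables list were followed here. In the tables they are named hsa-miR-17-5p, hsa-miR-17-3p, hsa-miR-18a-5p, hsa-miR-18a-3p, hsa-miR-19a-3p, hsa-miR-19b-3p, hsa-miR-20a-5p, hsa-miR-20a-3p, hsa-miR-92a-3p and hsa-miR-92a-1-5p, and the prefix is left out below. They were chosen by name, as arms cut from the hairpins of the cluster, with earlier results of these data known. The remaining arms of the miR-19 hairpins, miR-19a-5p and miR-19b-1-5p, were not among them and are described further down. All 10 are among the 2418 miRNAs of the FTO knockdown table and among the 2189 miRNAs of the table of the RNA immunoprecipitation (RIP-seq).

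The cells were HEK293 derivatives, that is, human embryonic kidney cells with a Flp-In T-Rex system for inducible transgenes. The lines FTO1C1, FTO2D4 and FTO3C3 were each 1 clone, and the knockdown was done in uninduced cells. For the knockdown, each clone received 10 nM of FTO-specific siRNA or of scrambled siRNA (scr) by lipofection, and the small RNA below 200 nt was sequenced after 48 h. For RIP-seq, small RNA of the same clones was used, and the labels give no treatment for these cells. It was sequenced as input, after 2 rounds of precipitation with an anti-m6A antibody (named me6A in the labels), or after the same with an IgG isotype control antibody. This gave 5 groups with 3 libraries each, 1 per clone, so that n = 3 throughout and the error is the spread between clones. FTO is a demethylase that removes m6A, a methyl group on the N6 position of adenosine. Its transcript is an mRNA, so the depth of the knockdown was not analysed here.

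The miR-17-92 cluster, also known as oncomiR-1, is transcribed as part of the long noncoding host transcript MIR17HG, and MYC is a known activator of its transcription. The primary transcript is cut by DROSHA into separate hairpins, DICER then releases a duplex of a 5p and a 3p arm from each, and usually the guide arm is loaded onto an Argonaute protein while its partner, the passenger arm, is degraded. The seed, bases 2 to 8 of the mature arm, sets which mRNAs are bound. The cluster is known for promoting proliferation and survival, with BCL2L11 (BIM) and CDKN1A among its established targets.

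The sequences are shown because the arms of the miR-17, miR-18a, miR-20a and miR-92a-1 hairpins differed in their ratio of m6A to input, while the more abundant arms of each seed were all lower in m6A. All 10 names matched RefSeq entries of GRCh38.p14, where the 6 hairpins lie on the plus strand within 787 bases of chromosome 13 (chr13:91350605-91351391) inside MIR17HG, annotated as a lncRNA at chr13:91347687-91354577. In the MIR17 (chr13:91350605-91350688) and MIR92A1 (chr13:91351314-91351391) hairpins, capitals mark the mature arms, the 5p arm first.
MIR17: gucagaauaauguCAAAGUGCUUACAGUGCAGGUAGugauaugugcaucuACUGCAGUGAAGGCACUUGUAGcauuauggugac
MIR92A1: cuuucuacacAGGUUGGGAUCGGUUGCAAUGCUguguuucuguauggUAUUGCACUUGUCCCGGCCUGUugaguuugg
In the mature arms, capitals mark the seed. The arm of a hairpin with more reads in the input is called the guide here and the other the passenger. The guides carry 4 seeds. AAAGUGC is shared by miR-17-5p and miR-20a-5p, GUGCAAA by miR-19a-3p and miR-19b-3p, and AAGGUGC and AUUGCAC occur in the cluster in miR-18a-5p and miR-92a-3p.
miR-17-5p: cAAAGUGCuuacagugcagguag
miR-20a-5p: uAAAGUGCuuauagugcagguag
miR-18a-5p: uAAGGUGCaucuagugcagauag
miR-19a-3p: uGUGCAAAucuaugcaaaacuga
miR-19b-3p: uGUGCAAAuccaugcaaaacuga
miR-92a-3p: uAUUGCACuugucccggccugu
The passengers among the members each have a seed that no other RefSeq human miRNA carries.
miR-17-3p: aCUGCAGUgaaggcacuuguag
miR-18a-3p: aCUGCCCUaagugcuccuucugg
miR-20a-3p: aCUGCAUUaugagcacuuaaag
miR-92a-1-5p: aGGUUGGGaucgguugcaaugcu

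Close relatives limit what a count means. miR-19a-3p and miR-19b-3p are 1 edit apart, miR-17-5p is 1 edit from miR-106a-5p and miR-18a-5p is 1 edit from miR-18b-5p, so reads with a sequencing error or an altered end could be given to the relative. miR-106a-5p and miR-18b-5p are rare in these cells, with 3.86 and 4.74 reads per 1000000 miRNA reads (RPM) on average in the scr libraries. The sequences of miR-19b-3p and miR-92a-3p each occur at 2 loci, in MIR19B1 and MIR19B2 and in MIR92A1 and MIR92A2, and their reads cannot be assigned to one of them. The passenger arms are 5 to 7 edits from their nearest relative.

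The libraries held 1991317 to 3637951 miRNA reads with scr siRNA, 3462842 to 3876806 with FTO siRNA, 1408702 to 1500357 in the inputs, 569501 to 4973238 in the m6A precipitates and 186446 to 786688 in the IgG precipitates. In RIP-seq a single miRNA, miR-6080, took 15.5% to 28.4% of the input reads, 41.3% to 47.8% of the m6A reads and 58.0% to 71.6% of the IgG reads, so RPM in these groups lean on it. In the FTO3C3 input, miR-3168 took 32.3% of the reads against 15.5% for miR-6080, and no alternative left miR-3168 out of the totals. The count of miR-6080 in the FTO2D4 clone was 563404 in the m6A and also 563404 in the IgG library, and members whose call or direction changed without this clone or with totals that leave out miR-6080 are named with those values. Of 8 marker miRNAs of liver, blood, muscle and nerve, which kidney-derived cells should hold at low level, the 7 listed in the knockdown table summed to 81.6 to 130 RPM. The 5 listed in the RIP-seq table summed to 446 to 879 RPM in the inputs, 809 to 1980 RPM in the m6A and 81.4 to 113 RPM in the IgG libraries. Most of this was miR-223-3p, a miRNA of myeloid blood cells, with 406 to 822 RPM in the inputs and 713 to 1853 RPM in the m6A libraries. Its part in the results below was not tested.

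The cluster was abundant before precipitation and was dominated by miR-92a-3p. The 10 arms together took 4.99% ± 1.55 (SD, n = 3) of the miRNA reads with scr siRNA, 5.19% ± 1.22 with FTO siRNA and 3.45% ± 1.05 in the inputs. They took 0.177% ± 0.0294 of the reads in the m6A precipitates and 0.0439% ± 0.0108 in the IgG precipitates. Within the cluster, miR-92a-3p, a member of the miR-25 seed family, held 87.2% ± 0.416 of the reads with scr siRNA and 85.2% ± 4.87 in the inputs. All members measure 22 or 23 nt and a read covers the whole molecule, so counts need no length correction between arms, although ligation of adapters can favour some miRNAs.

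In the scr libraries miR-92a-3p was measured at 44558 (FTO1C1), 29406 (FTO2D4) and 56734 (FTO3C3) RPM. Next came miR-19b-3p at 1232 to 1867 RPM, miR-17-5p at 854 to 1888 RPM, miR-19a-3p at 1084 to 1544 RPM and miR-20a-5p at 641 to 1627 RPM, and these 4 ranges overlap. Below them and without overlap lay miR-18a-5p at 354 to 610 RPM and miR-17-3p at 222 to 313 RPM. The 3 rarest arms were miR-92a-1-5p at 47.5 to 92.4 RPM, miR-18a-3p at 16.2 to 32.6 RPM and miR-20a-3p at 15.8 to 26.6 RPM, and the last 2 ranges overlap. In the inputs of the RIP-seq, a separately made table, miR-20a-3p was at 70.6 to 105 RPM and miR-20a-5p at 440 to 510 RPM. These are bulk RNA levels, in which fewer cells with a miRNA and less of it per cell cannot be told apart.

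**Figure D1:**
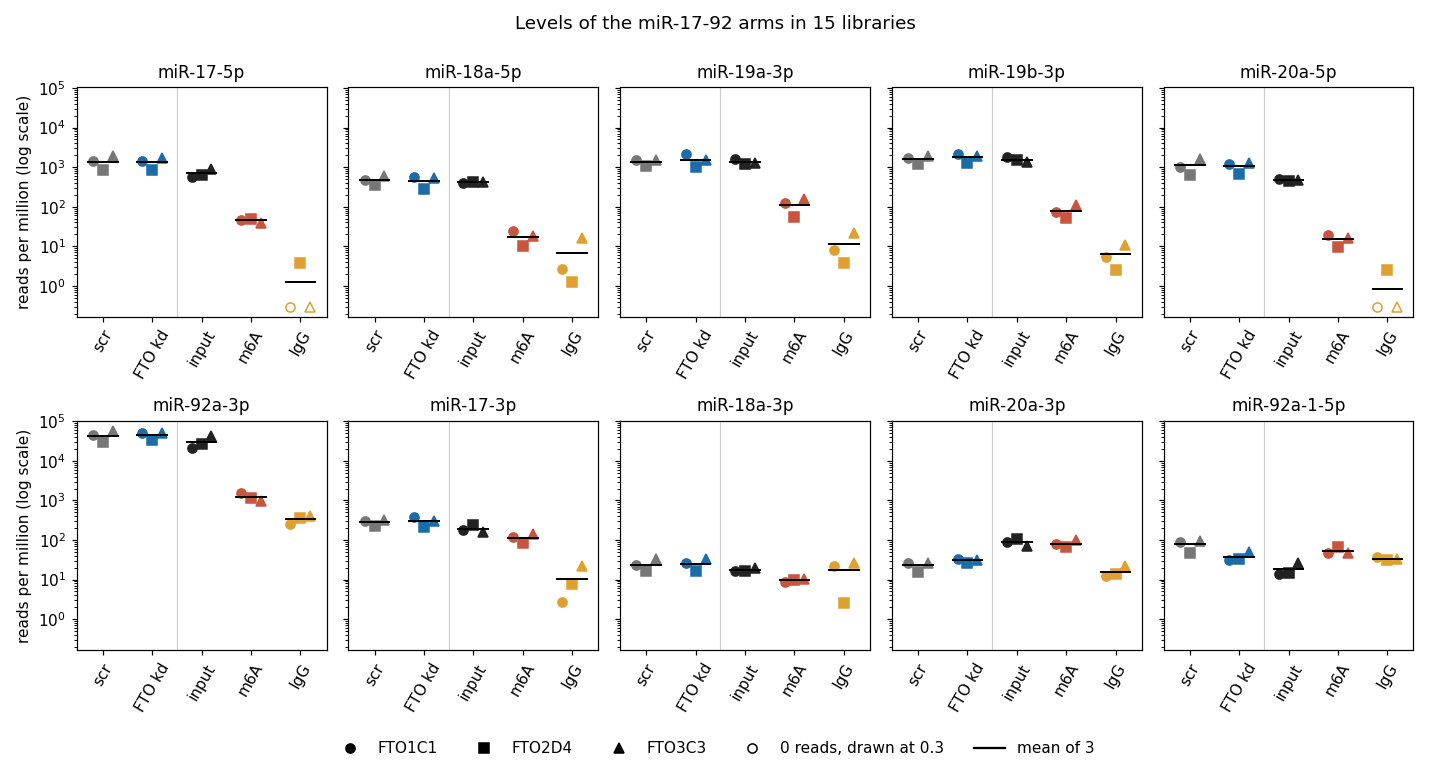
Level of each of the 10 arms in RPM of all miRNA reads (log axis) in the 15 libraries, by group (scr siRNA, FTO siRNA, input, m6A, IgG); each symbol is 1 clone, open symbols are libraries with 0 reads drawn at a fixed low position and lines are means of 3. The 6 guides in the first 6 panels are lower in m6A than in input and lowest in IgG on average, while miR-18a-3p, miR-20a-3p and miR-92a-1-5p have m6A or IgG levels near or above the input.

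The comparison of the m6A with the IgG precipitate asks whether an arm was recovered with the m6A antibody beyond background. Guide arms of 3 of the 4 seeds and the passenger arms of miR-17 and miR-20a were higher in m6A than in IgG. By edgeR's quasi-likelihood test with the clone as a block, 6 of the 8 members that passed the filter on low counts were higher and 0 were lower at an adjusted p under 0.05 (0 lower also without adjustment and by DESeq2), while 38.6% of all 2054 tested miRNAs were higher and 1.27% lower. Since a rare member could pass the filter through its m6A reads alone, this count is a description. The median log2 fold change over all tested miRNAs was 0.83, against which the members should be read, and with TMM factors it was 0.06. The split of all calls was 792 higher and 26 lower with totals of miRNA reads, and 453 higher and 302 lower with TMM factors.

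miR-19b-3p, a guide with the GUGCAAA seed, was counted in 41 (FTO1C1), 71 (FTO2D4) and 536 (FTO3C3) m6A reads and in 4, 2 and 2 IgG reads, which gave 72.0, 52.1 and 108 RPM against 5.39, 2.54 and 10.7 RPM. The groups did not overlap, and the log2 fold change was 3.80 ± 0.46 (SE, adjusted p = 0.00027). Its near-twin miR-19a-3p had 123, 55.8 and 156 RPM in m6A and 8.09, 3.81 and 21.5 RPM in IgG, also without overlap, with a log2 fold change of 3.57 ± 0.43 (adjusted p = 0.000261). For the passenger arm miR-17-3p the values were 116, 83.7 and 144 RPM in m6A against 2.70, 7.63 and 21.5 RPM in IgG, with a log2 fold change of 3.77 ± 0.52 (adjusted p = 0.000554). miR-20a-3p was at 77.3, 66.8 and 98.3 RPM in m6A and 12.1, 14.0 and 21.5 RPM in IgG, a log2 fold change of 2.38 ± 0.38 (adjusted p = 0.00117). Thus these guide and passenger arms stood apart from IgG in each clone.

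miR-92a-3p, the most abundant arm, showed a smaller difference. It was at 1573, 1176 and 987 RPM in m6A and at 250, 357 and 402 RPM in IgG, with non-overlapping groups and a log2 fold change of 1.89 ± 0.32 (adjusted p = 0.0018). miR-17-5p, a guide whose seed family targets CDKN1A, was found in 27, 67 and 189 m6A reads but in 0, 3 and 0 IgG reads. Counts of 0 allow up to 4.05 RPM in the FTO1C1 and 16.1 RPM in the FTO3C3 IgG library, so the fitted log2 fold change of 4.75 ± 0.73 (adjusted p = 0.000968) depends on the prior count, and without FTO2D4, whose IgG library held the 3 reads, it was 9.20. With the reads of the 3 libraries pooled, the ratio of m6A to IgG was 23.4 with a 95% counting interval of 7.93 to 114. Intervals of this kind cover counting error only, since PCR copies were not marked.

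The other 4 arms gave no call. miR-18a-5p was at 24.6, 10.3 and 17.7 RPM in m6A and at 2.70, 1.27 and 16.1 RPM in IgG. These ranges overlapped, because the small FTO3C3 IgG library held 3 reads of it, and the log2 fold change was 2.03 ± 0.74 (adjusted p = 0.0547, or 0.0289 without the block). In 1 fit of all RIP-seq libraries miR-18a-5p was also called, and 7 of 8 tested members were higher. With TMM factors (adjusted p = 0.183) and DESeq2 (0.319) it was not called. miR-92a-1-5p was at 47.4, 68.2 and 46.9 RPM in m6A and at 36.4, 30.5 and 32.2 RPM in IgG. Its groups did not overlap, yet the log2 fold change of 0.72 ± 0.37 was close to the median of all miRNAs (adjusted p = 0.153). With TMM factors it was -0.04. The passenger arm miR-18a-3p had 16, 2 and 5 reads in IgG against 5, 13 and 52 in m6A, and miR-20a-5p had 0, 2 and 0 against 11, 13 and 79. Neither passed the filter on low counts. In the 3 alternatives that tested miR-20a-5p, it was higher with no filter (adjusted p = 0.0184) and without FTO2D4 (adjusted p = 0.0394), which gave 7 members higher each time, and not called without FTO1C1 (adjusted p = 0.136). Its fitted fold changes depend on the prior count. Pooled over the libraries, the m6A to IgG ratio was 0.756 (95% counting interval 0.466 to 1.27) for miR-18a-3p and 12.8 (3.45 to 107) for miR-20a-5p.

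Set against the input, which shares its m6A libraries with the comparison above, the guide arms were strongly reduced in the m6A precipitate. Of the 10 members, all tested, 6 were lower, 1 was higher and 3 gave no call, while 10.5% of all 2174 tested miRNAs were lower and 66.8% higher. The 6 lower members were miR-17-5p, miR-18a-5p, miR-19a-3p, miR-19b-3p, miR-20a-5p and miR-92a-3p, so each of the 4 guide seeds was represented. Their log2 fold changes lay between -5.04 and -3.70, whereas the median of all miRNAs was 1.65. In all 10 alternatives, each of these 6 stayed lower with an adjusted p under 0.05.

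miR-92a-3p fell from 20970, 26400 and 41638 RPM in the inputs to 1573, 1176 and 987 RPM in m6A, in the order FTO1C1, FTO2D4 and FTO3C3. The m6A to input ratio was thus 0.0750, 0.0446 and 0.0237 in the clones, and the log2 fold change was -4.54 ± 0.51 (adjusted p = 1.47e-08). The clone with the highest input had the lowest m6A level. miR-20a-5p, which shares its seed with miR-17-5p, had the lowest fold change of the members. It went from 510, 440 and 473 RPM in the inputs to 19.3, 9.54 and 15.9 RPM in m6A, a log2 fold change of -5.04 ± 0.47 (adjusted p = 1.21e-09), and 0.874% of all tested miRNAs lay at or below it.

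For miR-17-5p the inputs held 576, 643 and 886 RPM and the m6A libraries 47.4, 49.2 and 38.0 RPM, with a log2 fold change of -3.97 ± 0.44 (adjusted p = 1.48e-08). miR-18a-5p, the guide of the AAGGUGC seed, went from 390, 423 and 431 RPM to 24.6, 10.3 and 17.7 RPM, with a log2 fold change of -4.65 ± 0.47 (adjusted p = 2.96e-09). For the miR-19 guides the change was -3.70 ± 0.45 (miR-19a-3p, adjusted p = 5.47e-08) and -4.34 ± 0.46 (miR-19b-3p, adjusted p = 6.64e-09) on the log2 scale. Input and m6A libraries did not overlap for any of these 6 guides.

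The passengers of miR-17, miR-18a, miR-20a and miR-92a-1 kept much more of their input level than their guides, which was not so for miR-19b-1-5p, described further down. miR-17-3p was at 183, 236 and 161 RPM in the inputs and at 116, 83.7 and 144 RPM in m6A. The m6A values were lower in each clone and the groups did not overlap, but the log2 fold change of -0.77 ± 0.40 did not reach the threshold (adjusted p = 0.0832). miR-20a-3p was at 87.3, 105 and 70.6 RPM in the inputs and at 77.3, 66.8 and 98.3 RPM in m6A. These groups overlapped, and the log2 fold change was -0.11 ± 0.40 (adjusted p = 0.806). miR-18a-3p had 23, 24 and 30 reads in the inputs, a mean of 17.6 ± 2.09 RPM (SD, n = 3), and 5, 13 and 52 reads in m6A, which is 8.78, 9.54 and 10.5 RPM. Its log2 fold change was -0.87 ± 0.43 (adjusted p = 0.0639).

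miR-92a-1-5p, the passenger of miR-92a-3p, was the member that was higher in m6A than in the input. The inputs held 14.2, 14.4 and 26.7 RPM (20, 21 and 40 reads) and the m6A libraries 47.4, 68.2 and 46.9 RPM (27, 93 and 233 reads). It was higher in 3 of 3 clones without overlap, with a log2 fold change of 1.56 ± 0.41 (adjusted p = 0.00107), which is just under the median of 1.65 over all tested miRNAs. Scaling decides how the passenger arms are called. TMM factors move the median of all miRNAs to 0.10 and the split of all calls from 1452 higher and 229 lower to 575 higher and 614 lower. On that scale the log2 fold change was 0.00 for miR-92a-1-5p (adjusted p = 1), while miR-17-3p (-2.32), miR-18a-3p (-2.46) and miR-20a-3p (-1.66) were lower with adjusted p-values of 0.00027, 0.00036 and 0.00146. Under either scale the 4 passengers among the members had higher log2 fold changes than the 6 guides.

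IgG precipitates, compared with the same inputs, also held little of the guide arms. At an adjusted p under 0.05, 8 of 10 members were lower and 0 were higher (0 higher also without adjustment and by DESeq2), with 21.8% of all 1941 tested miRNAs lower and 36.8% higher. A member with few IgG reads could pass the filter through its input reads alone, so this count is a description. Over all tested miRNAs the median log2 fold change was 0.49, or -0.02 with TMM factors, and the calls were 714 higher and 423 lower, or 559 and 586 with TMM factors. The 6 guides had log2 fold changes of -8.56 to -6.43, with miR-92a-3p at -6.43 ± 0.45. The values of miR-17-5p (0, 3 and 0 IgG reads) and miR-20a-5p (0, 2 and 0 IgG reads) depend on the prior count. Among the alternatives they reached -12.26 and -11.91. miR-17-3p at -4.66 ± 0.59 and miR-20a-3p at -2.58 ± 0.55 were lower too, by less than their guides. miR-92a-1-5p was at 14.2, 14.4 and 26.7 RPM in the inputs and at 36.4, 30.5 and 32.2 RPM in IgG, higher in 3 of 3 clones, with a log2 fold change of 0.95 ± 0.51 (adjusted p = 0.0989). Without FTO3C3, and with totals that leave out miR-6080, it was called higher, with log2 fold changes of 1.22 and 2.10 and adjusted p-values of 0.0458 and 2.34e-05. For miR-18a-3p the log2 fold change was -0.36 ± 0.55 (adjusted p = 0.596) and turned to 0.77 with totals without miR-6080.

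**Figure D2:**
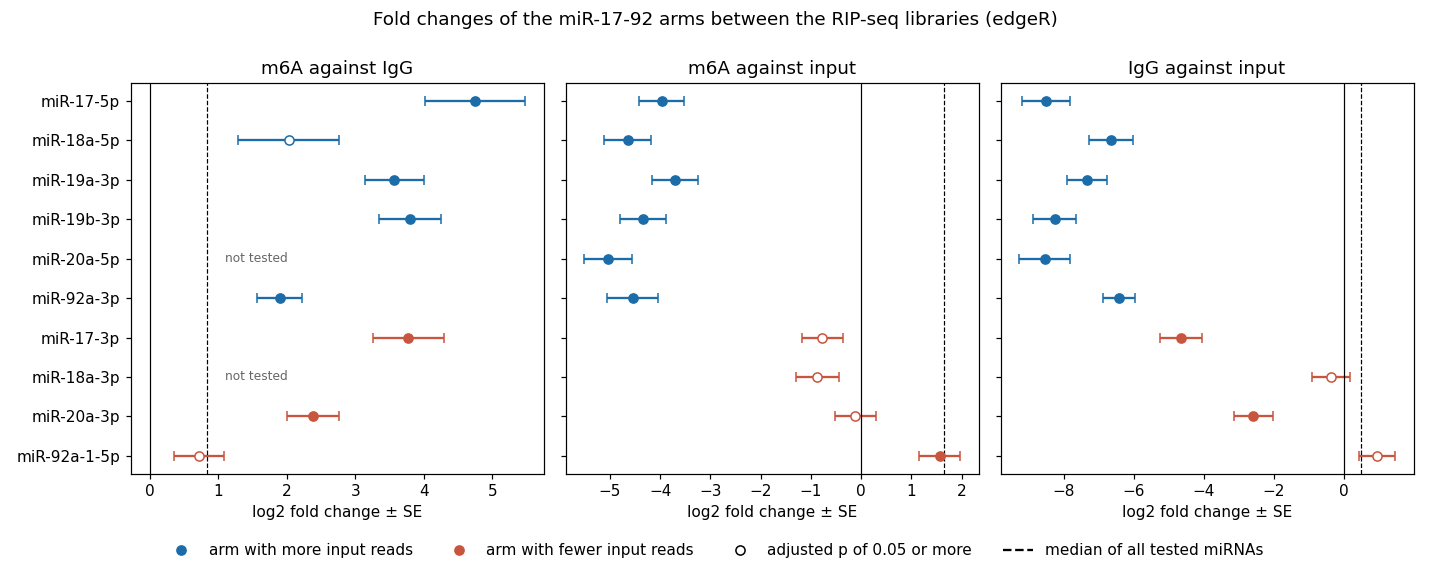
Log2 fold change (edgeR, bars are ± 1 SE, n = 3 clones) of each arm for m6A against IgG, m6A against input and IgG against input; filled symbols have an adjusted p under 0.05 and the dashed line is the median of all tested miRNAs. Against input, the guide arms (blue) lie between -5.04 and -3.70 in m6A and the passengers among the members (red) between -0.87 and 1.56; miR-18a-3p and miR-20a-5p were not tested against IgG.

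Reads on the arms of 1 hairpin give a ratio that does not depend on the library total. For miR-92a-1 the guide reads can include those of MIR92A2, so its ratio is not of that hairpin alone. In the inputs, 22.1% ± 6.00 (SD, n = 3) of the reads on the miR-17 arms were miR-17-3p. This passenger share was 71.0% ± 8.07 in the m6A precipitates, with 63.0% to 79.1% in the 3 clones against 15.4% to 26.9% in the inputs. For miR-20a the share of miR-20a-3p was 15.6% ± 3.23 in the inputs and 84.5% ± 3.99 in m6A. The ratio of the arms was thus turned around for both hairpins in each clone. For miR-18a the passenger share was 4.06% ± 0.346 in the inputs and 37.2% ± 10.9 in m6A, and for miR-92a-1 it was 0.0620% ± 0.00681 and 4.31% ± 1.29.

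The passenger shares were also high in the IgG precipitates, where few reads lie behind them. There miR-17-3p had 2, 6 and 4 reads against 0, 3 and 0 of miR-17-5p, and miR-20a-3p had 9, 11 and 4 against 0, 2 and 0 of miR-20a-5p. For miR-92a-1, where 541 IgG reads were on miR-92a-3p, the passenger share was 9.34% ± 2.95, above the m6A share in each clone. On the log2 scale, the guide to passenger ratio changed from input to m6A by -3.18 (miR-17), -3.78 (miR-18a), -4.93 (miR-20a) and -6.14 (miR-92a-1). The log2 ratios of input and m6A libraries did not overlap for any of the 4 hairpins. In a two-sided exact permutation test this gave p = 0.1 for each, the smallest value that 3 against 3 libraries allow, or 0.12 after adjustment over 12 such tests. From IgG to m6A the log2 ratio changed by 2.36 (miR-18a) and 1.20 (miR-92a-1) towards the guide, again with an exact permutation p = 0.1, and for miR-17 and miR-20a it could not be taken because of the IgG counts of 0.

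**Figure D3:**
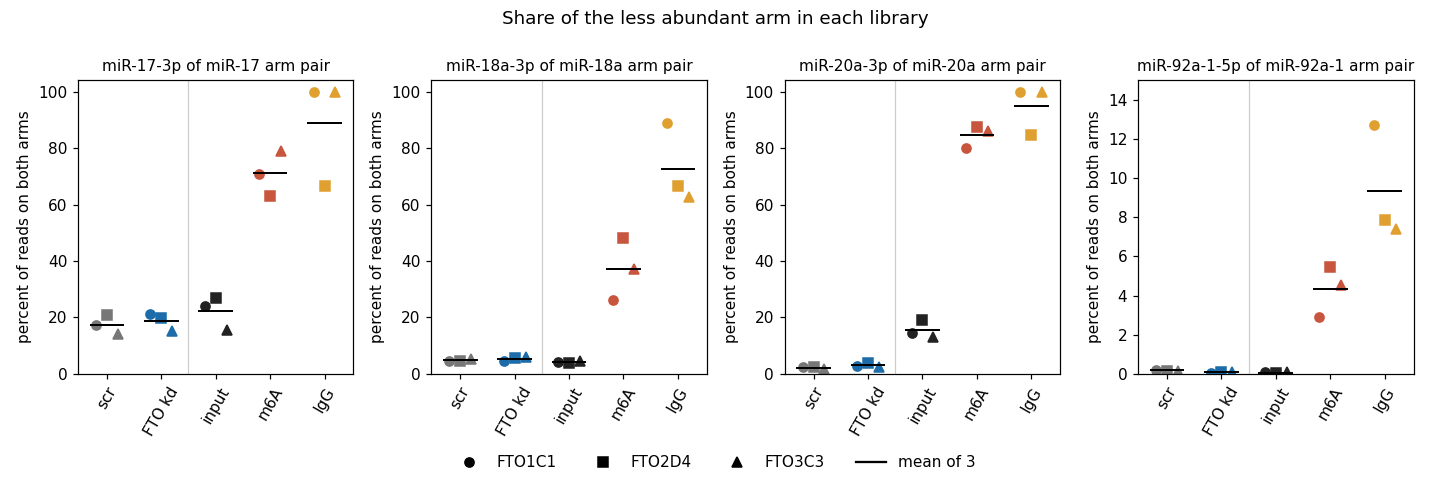
Share of the less abundant arm in the reads on both arms of the miR-17, miR-18a, miR-20a and miR-92a-1 hairpins, in percent, for each of the 15 libraries; symbols are clones and lines are means of 3, and the axis of miR-92a-1 ends at a lower value. The miR-17-3p share is 15.4% to 26.9% in the inputs and 63.0% to 79.1% in m6A. For miR-92a-1 the reads on miR-92a-3p can include those of MIR92A2.

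The make-up of the cluster also differed between input and m6A. miR-92a-3p held 85.2% ± 4.87 of the cluster's reads in the inputs and 69.9% ± 7.88 in m6A, where miR-17-3p made up 6.55% ± 2.01, miR-20a-3p 4.65% ± 1.25 and miR-92a-1-5p 3.15% ± 1.06. Among the other 9 arms, that is without miR-92a-3p, miR-17-3p held 4.07% ± 0.976 in the inputs and 21.7% ± 1.01 in m6A. For miR-20a-5p the shares were 9.91% ± 0.251 and 2.82% ± 0.684. None of the 40 exact permutation tests of cluster shares can pass 0.05 with 3 against 3 libraries, and the smallest adjusted p was 0.19.

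Knockdown of FTO asks whether levels of the arms depend on the demethylase. The cluster as a whole was at 51120, 33873 and 64734 RPM with scr siRNA and at 59038, 37825 and 58916 RPM with FTO siRNA. The groups overlapped, with ratios of 1.15, 1.12 and 0.910 in the clones. Of the 10 members, 1 was lower and 0 were higher by edgeR's quasi-likelihood test, whereas 4.97% of all 2374 tested miRNAs were higher and 0.505% lower. DESeq2 also called 1 lower and 0 higher. It gave an adjusted p to only 763 of the 2374 miRNAs, and to neither miR-18a-3p nor miR-20a-3p, so it could not call these. By edgeR at an unadjusted p under 0.05, miR-20a-3p was the 1 member that was higher. The median log2 fold change over all miRNAs was 0.29, or 0.00 with TMM factors, and the calls were 118 higher and 12 lower, or 21 and 34 with TMM factors.

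miR-92a-1-5p was the member that fell. It was measured at 91.3, 47.5 and 92.4 RPM (332, 117 and 184 reads) with scr siRNA and at 31.3, 32.6 and 50.0 RPM (109, 113 and 194 reads) with FTO siRNA. The level was lower in 3 of 3 clones, with ratios of 0.343, 0.687 and 0.542, although the ranges of the groups overlap across clones. The log2 fold change was -0.99 ± 0.23 (adjusted p = 0.0362). This call rested on FTO1C1 and on the block. Without FTO1C1 the log2 fold change was -0.72 (adjusted p = 0.328), in a fit that called 0 miRNAs by edgeR and held 327 with an unadjusted p under 0.05, and without the clone as a block the adjusted p was 0.11. Its guide miR-92a-3p was at 44558, 29406 and 56734 RPM and at 51088, 33504 and 51601 RPM, with a log2 fold change of 0.08 ± 0.13 (adjusted p = 0.694). The passenger share of the miR-92a-1 arm pair, whose guide reads can include those of MIR92A2, was 0.176% ± 0.0245 with scr siRNA. With FTO siRNA it was 0.0852% ± 0.0207, without overlap (exact permutation p = 0.1, the smallest possible).

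The remaining guides and passengers gave log2 fold changes between -0.11 and 0.44. miR-20a-3p was at 25.8, 15.8 and 26.6 RPM with scr siRNA and at 33.0, 26.3 and 32.0 RPM with FTO siRNA. It was higher in 3 of 3 clones, with a log2 fold change of 0.44 ± 0.19 (adjusted p = 0.188). miR-17-5p had ratios of 0.998, 0.978 and 0.905 and a log2 fold change of -0.06 ± 0.14 (adjusted p = 0.807). miR-19a-3p had ratios of 1.42, 0.929 and 0.984, so FTO1C1 alone was raised. The guides miR-19b-3p (0.13), miR-20a-5p (-0.03) and miR-18a-5p (-0.11) and the passengers miR-17-3p (0.08) and miR-18a-3p (0.08) likewise gave no call. With TMM factors, which remove the shift of all miRNAs, 9 of the 10 members had negative log2 fold changes and miR-20a-3p was at 0.15.

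**Figure D4:**
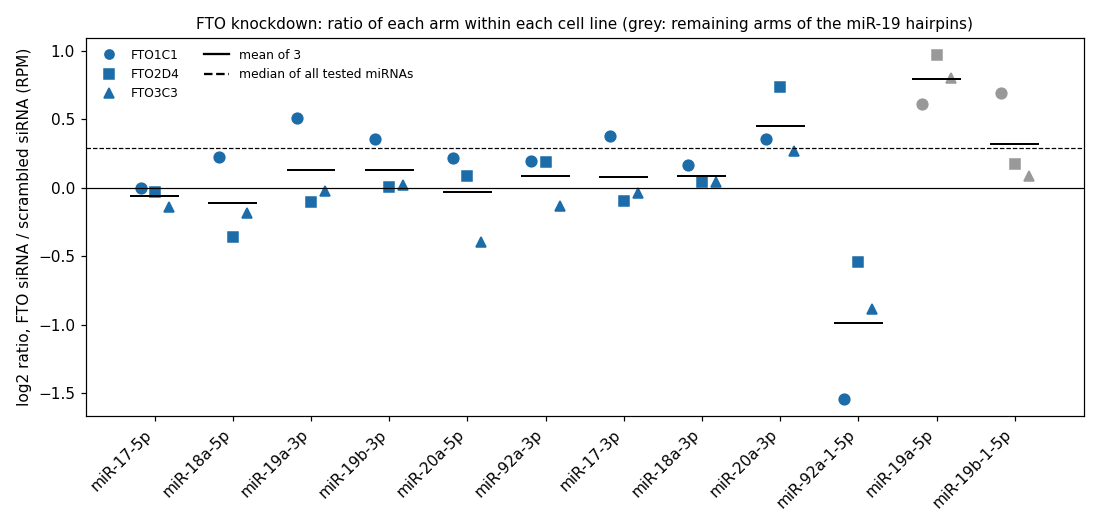
Log2 ratio of RPM with FTO siRNA to RPM with scr siRNA in each clone (symbols) for the 10 arms and, in grey, for miR-19a-5p and miR-19b-1-5p; lines are means of 3 and the dashed line marks the median change over all miRNAs tested. miR-92a-1-5p lies below 0 in 3 of 3 clones, and miR-18a-3p, miR-19b-3p and miR-20a-3p lie above 0 in 3 of 3, the first 2 of them by little.

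The 2 remaining arms of the miR-19 hairpins, miR-19a-5p and miR-19b-1-5p, complete the cluster. Both were lower in m6A than in the input. miR-19a-5p went from 33.4, 27.4 and 31.3 RPM to 8.78, 6.60 and 5.03 RPM, with a log2 fold change of -2.26 ± 0.43 (adjusted p = 3.36e-05). miR-19b-1-5p went from 65.3, 78.8 and 58.0 RPM to 8.78, 2.20 and 3.02 RPM, a log2 fold change of -4.10 ± 0.49 (adjusted p = 3.65e-08), close to that of its guide. After FTO knockdown miR-19a-5p was higher in 3 of 3 clones with a log2 fold change of 0.77 ± 0.20, which narrowly missed the threshold (adjusted p = 0.0527). With a filter of at least 15 RPM in all 3 libraries of a group, edgeR called it (adjusted p = 0.0269). With TMM factors its log2 fold change was 0.47 (adjusted p = 0.256), and DESeq2 gave it no adjusted p.

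The paralogous clusters miR-106a-363 on the X chromosome and miR-106b-25 in an intron of MCM7 arose from the same ancestral cluster. The arms of miR-106b-25 carry the guide seeds AAAGUGC and AUUGCAC but neither GUGCAAA nor AAGGUGC. For miR-106b-25, which has 6 of 6 arms in both tables, 4 were lower in m6A than in the input and 1 was higher. The guide miR-25-3p, with the seed of miR-92a-3p, had a log2 fold change of -5.37 ± 0.50 and miR-93-5p, with the seed of miR-17-5p, of -5.32 ± 0.47. The passenger miR-25-5p was at 13.5, 20.6 and 37.3 RPM in the inputs and at 214, 353 and 227 RPM in m6A, higher in 3 of 3 clones with a log2 fold change of 3.54 ± 0.46 (adjusted p = 1.39e-07). Guide and passenger of this hairpin thus also lay far apart, and those of miR-93 did too. In FTO1C1, FTO2D4 and FTO3C3 the m6A to input ratio was 0.0290, 0.0250 and 0.0221 for miR-93-5p and 0.691, 0.958 and 1.70 for miR-93-3p. The arms of miR-106b lay close together, with ratios of 0.101, 0.0508 and 0.135 for miR-106b-5p and 0.0899, 0.0603 and 0.102 for miR-106b-3p. After FTO knockdown, miR-25-3p was lower with a log2 fold change of -0.61 ± 0.12 (adjusted p = 0.0246), and the other 5 arms gave no call. The ratios of miR-25-3p were 0.621, 0.698 and 0.648 in FTO1C1, FTO2D4 and FTO3C3, and the groups did not overlap. Its call was lost without the block (adjusted p = 0.0843). It was also lost without FTO1C1 (adjusted p = 0.204), in a fit that called 0 miRNAs by edgeR. Of the 10 arms of miR-106a-363, 4 are listed in the RIP-seq and 9 in the knockdown table. In m6A against input 2 of the 4 were higher, miR-92a-2-5p (2.92) and miR-363-5p (1.32), and miR-363-3p at -0.22 ± 0.39 gave no call although it shares the seed of miR-92a-3p. With TMM factors, miR-92a-2-5p was higher (1.37), miR-363-5p gave no call (-0.23) and miR-363-3p was lower (-1.77), and without FTO2D4 the adjusted p of miR-363-5p was 0.0893. After knockdown 0 of the 9 were called by edgeR in the reported analysis, with 1, miR-363-5p, at an unadjusted p under 0.05. The ratios of miR-363-5p were 1.91, 1.81 and 1.40 in FTO1C1, FTO2D4 and FTO3C3, without overlap of the groups. In 1 arm each time, edgeR made a higher call with no filter on low counts, with the 15 RPM filter (2 arms tested) and without FTO3C3. DESeq2 called 0, but gave an adjusted p to only 763 of the 2374 miRNAs.

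The miRNAs whose levels over the 9 RIP-seq libraries were most like the summed level of the cluster were miR-30e-5p (Pearson's r = 0.996), miR-186-5p (0.992), miR-93-5p (0.990), miR-25-3p (0.989) and miR-26b-5p (0.988), among 320 miRNAs with a mean of at least 100 RPM in the inputs. These correlations of log2(RPM + 1) describe 9 libraries that fall into 3 groups and share their totals. miR-93-5p and miR-25-3p belong to the miR-106b-25 cluster.

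The letters AAC or GAC, the core of the sequence in which m6A occurs in mRNA, were searched on the given strand of the mature arms. They occur in 2 of the 10 members, miR-19a-3p and miR-19b-3p, in both cases as AAC near the 3′ end. Of 2370 mature human miRNAs in RefSeq, 855 or 36.1% hold AAC or GAC. The other 8 members hold neither.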

How the data were processed

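Small RNA was sequenced in 15 libraries of 3 clones. Adapters were trimmed by the authors with cutadapt, who kept reads of miRNA length and matched them to mature miRNAs of miRBase release 20 without a genome, collapsing identical sequences. The authors deposited raw counts of reads per miRNA. The library size was the total of miRNA reads, and RPM were computed from it. Groups were compared by edgeR's quasi-likelihood test (filterByExpr, minimum count 10, clone as a block) over all miRNAs, with Benjamini-Hochberg adjustment at 0.05. By design the libraries were paired by clone. Deviations from the group means correlated at 0.118 to 0.190 within clones in the knockdown. In RIP-seq such a correlation was not seen. It was 0.00681 to 0.0251 for m6A and IgG, -0.0777 to -0.0293 for m6A and input and -0.0300 to 0.0602 for IgG and input. Libraries of a group differed by more than sampling noise (chi-square per degree of freedom of 6.11 or more), so each counted once. The test was checked on simulated counts, where it recovered 97.2% (knockdown), 90.5% (m6A against IgG), 91.5% (m6A against input) and 87.5% (IgG against input) of 4-fold changes. In the same order, 2.35%, 4.90%, 4.19% and 3.49% of the calls were false. Changes were placed only in miRNAs with enough expected reads in the smallest library, and no clone effect was simulated. The recovery of rarer miRNAs was thus not measured. The m6A, IgG and input comparisons share libraries.

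Arm ratios and cluster shares were compared with exact permutation tests over libraries. Named miRNAs are the 10 members, the 2 remaining arms of their hairpins, at most 3 per comparison with the largest change in each paralogous cluster, miR-6080, and the 5 miRNAs most like the summed members. miR-25-5p, miR-93-3p, miR-106b-5p, miR-106b-3p and miR-363-3p in m6A against input, and miR-106a-5p and miR-18b-5p as relatives, were added after their values were seen. So was miR-3168, as the top miRNA of the FTO3C3 input. The members and lists were chosen with earlier results of these data known. Alternatives were TMM factors, DESeq2, totals without miR-6080, other filters, no block, 1 fit of all RIP-seq libraries and each clone left out. Sequences are from RefSeq (GRCh38.p14). R 4.3.3 was used with edgeR 4.0.16 (on limma 3.58.1) and, for the alternative, DESeq2 1.42.0. Ratios, shares and permutation tests were run in Python 3.11.15 with scipy 1.17.1, pandas 2.3.3 and numpy 2.4.6, and plots were drawn with matplotlib 3.10.9.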

Additional observations from a re-analysis of the deposited data

How the results depend on the processing

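Precision was limited by 3 clones per group and by IgG libraries in which the rarer guides had 0 to 3 reads. It was also limited by a scale that rests on miR-6080 and, in the FTO3C3 input, also on miR-3168. All 6 guides kept their direction and their call in m6A against input and in IgG against input under each alternative run. With counts summed over the 3 libraries, the cluster shares and arm ratios moved by less than 1 SD, and leaving out 1 of 3 libraries cannot move a mean by that much. Without the clone as a block, 0 instead of 1 member was called lower after knockdown, and leaving out a clone in turn gave 0 to 1. With TMM factors and with DESeq2, 0 instead of 1 member was higher in m6A than in input. With totals without miR-6080, 1 instead of 0 members was higher in IgG than in input (0 to 1 with a clone left out). Over all miRNAs, 37 higher and 4 lower calls were made after knockdown without the block, against 118 and 12 with it, and 456 higher calls in m6A against IgG without FTO2D4, against 792 with it. Among the members, the directions that turned belonged to fold changes that did not pass the threshold in the reported analysis. After knockdown, TMM factors and DESeq2 turned miR-17-3p (-0.21 and -0.21), miR-18a-3p (-0.20 and -0.21), miR-19a-3p (-0.16 and -0.17), miR-19b-3p (-0.16 and -0.17) and miR-92a-3p (-0.21 and -0.21). With each clone left out in turn, miR-17-3p ranged from -0.068 to 0.17, miR-18a-5p from -0.27 to 0.018, miR-19a-3p from -0.064 to 0.24 and miR-20a-5p from -0.16 to 0.15. In m6A against IgG, TMM factors and DESeq2 turned miR-92a-1-5p (-0.043 and -0.080). In m6A against input, miR-20a-3p was at 0.35 with totals without miR-6080 and ranged from -0.42 to 0.16 with a clone left out. In IgG against input, miR-18a-3p was at 0.77 and ranged from -0.96 to 0.41 under the same alternatives. Setting an IgG count of 0 to 1 read in place of 3 moved the mean m6A to IgG ratio of miR-17-5p from 8.99 to 18.4 and of miR-20a-5p from 3.17 to 7.01. Among the members, leaving out the block changed no call other than those of miR-92a-1-5p after knockdown, miR-18a-5p in m6A against IgG and miR-18a-3p in m6A against input (adjusted p = 0.0448 without the block). Among the other named miRNAs it changed the calls of miR-25-3p after knockdown (0.0843), miR-6080 in m6A against input (0.0453) and miR-363-5p in IgG against input (0.0320). The causes were not tested.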
